A study of Mus musculus with 9 samples.

Results

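Small leucine-rich proteoglycans (SLRPs) were followed in cultures of mouse embryonic fibroblasts (MEFs) that were being reprogrammed to induced neurons (iNs). The genes were taken by name, by a rule that uses no measured value: Dcn, Lum, Bgn, Fmod, Ogn, Prelp, Aspn, Epyc, Omd and Podn. These were 10 genes of 30406 that the gene tables of all libraries had in common, and each had a row in all 9 libraries.

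The MEFs came from wild-type (WT) mice and from Per1-/- and Per2-/- mice, which lack one of the Period genes of the circadian clock. The names of the mutant strains give B6 and 129 as background (alleles Per1tm1Drw and Per2tm1Drw). The embryos were of embryonic day 13.5, the head and heart were removed, and the embryos of a dish were pooled with no record of their sex. All cultures, WT included, carried lentiviruses for a set of neuronal transcription factors, Brn2 and Myt1l among them, and for the reverse tetracycline transactivator, and all received doxycycline from day 0 in serum-free N3 medium with basic FGF on coated wells. A culture of each genotype was taken on days 4, 7 and 10 for droplet RNA sequencing from the 3′ ends of transcripts, which gave 1 library per genotype and day and no replicate within a day. The 9 libraries held 95603 cell barcodes and 126625215 to 353198559 unique molecular identifiers (UMIs, the count of captured RNA molecules). The WT day 10 library was the shallowest, with a median of 3552 UMIs per barcode against 16135 to 25795 in the others. The 74835 cells kept came from all libraries, and any 2 libraries shared 10 to 30 of their cell barcodes. The Per1-/- libraries of days 7 and 10 had almost no Xist (0.0674 and 0.0594 CPM, a scaled count explained further on), whereas the other 7 libraries had 346.6 to 995.5 CPM, and their Y-linked genes summed to 209.3 and 216 CPM against 50.9 to 117.1 CPM, so the mix of female and male embryos was not the same in all libraries. The day 10 tables had been made with another version of the counting software and another gene table than those of days 4 and 7.

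SLRPs are secreted proteins of the extracellular matrix with a core of leucine-rich repeats, many of which carry chondroitin, dermatan or keratan sulfate chains. They bind collagen fibrils and control how thick and how regularly spaced the fibrils become, and several of them also hold growth factors such as TGF-beta. In connective tissue they are made mainly by fibroblasts and by the cells of tendon, cartilage and bone, and decorin and lumican are widely used to recognize fibroblasts. Decorin (Dcn), biglycan (Bgn) and asporin (Aspn) belong to class I, lumican (Lum), fibromodulin (Fmod), PRELP (Prelp) and osteomodulin (Omd) to class II, osteoglycin (Ogn) and epiphycan (Epyc) to class III, and podocan (Podn) to a class of its own.

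Of the 10 genes, 8 lay in 3 short stretches of the genome (GRCm38, GENCODE M21). Dcn (chr10:97479609-97518143), Lum (chr10:97565128-97572703) and Epyc (chr10:97644068-97682454) followed each other on the plus strand of chromosome 10 within 202.8 kb, with Kera between Lum and Epyc. Aspn (chr13:49544443-49567565), Omd (chr13:49582462-49592822) and Ogn (chr13:49608046-49624501) lay on the plus strand of chromosome 13 within 80.1 kb, all 3 inside the span of Cenpp. Prelp (chr1:133910304-133921414, minus strand) and Fmod (chr1:134037254-134048277, plus strand) lay on chromosome 1 within 138.0 kb. Bgn (chrX:73483602-73495933) was on the X chromosome and Podn (chr4:108014791-108096445, minus strand) on chromosome 4.

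The chromosome 13 neighbours are shown by the 250 bases before their starts, because the day 10 sums of fibroblast-like cells passed the test for a rise in Aspn and Ogn and not in Omd. That difference between neighbours was not tested, and the Aspn call was lost in 9 of 17 alternative settings. Inside single clusters Aspn and Omd were each higher on day 10 than on day 4 in 19 of 23 combinations of cluster and genotype. The sequences are from RefSeq (GRCm38.p6, plus strand, 5′ to 3′), at chr13:49544193-49544442 for Aspn, chr13:49582212-49582461 for Omd and chr13:49607765-49608014 for Ogn. Capitals mark the letters of the TATA box (TATAAA) on either strand.
Aspn: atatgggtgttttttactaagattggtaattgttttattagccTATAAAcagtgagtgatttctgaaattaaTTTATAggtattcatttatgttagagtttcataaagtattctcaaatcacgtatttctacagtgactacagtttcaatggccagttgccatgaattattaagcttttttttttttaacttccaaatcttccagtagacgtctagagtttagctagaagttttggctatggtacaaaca
Omd: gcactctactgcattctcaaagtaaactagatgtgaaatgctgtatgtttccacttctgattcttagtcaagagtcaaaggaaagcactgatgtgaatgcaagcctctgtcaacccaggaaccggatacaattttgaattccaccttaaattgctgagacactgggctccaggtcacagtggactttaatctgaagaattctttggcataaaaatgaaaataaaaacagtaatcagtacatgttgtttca
Ogn: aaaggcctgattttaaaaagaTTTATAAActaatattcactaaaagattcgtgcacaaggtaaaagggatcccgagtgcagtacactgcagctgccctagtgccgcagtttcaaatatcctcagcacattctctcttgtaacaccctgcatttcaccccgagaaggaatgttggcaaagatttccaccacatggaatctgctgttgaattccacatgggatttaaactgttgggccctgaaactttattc
The Aspn sequence held the letters TATAAA 207 and 178 bases before the start. The Ogn sequence held them on both strands in 2 overlapping copies, 229 and 227 bases before the start. None of the searched letters was in the Omd sequence. The same search over the 250 bases before 32851 RefSeq starts found TATAAA in 12.4%. It also looked for the E-box of the clock type (CACGTG), which 6.02% held, for the Smad box (CAGACA), which 17.1% held, and for the AP-1 site (TGANTCA), which 6.75% held. Of the 8 members with a sequence in the table, none but Aspn and Ogn held TATAAA, and no member held any of the other 3 motifs. For Dcn and Lum no sequence was at hand, so they were not searched. These matches describe letters only, and whether any of them acts as a TATA box was not tested.

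Cells were grouped by clustering without the 10 genes, so that the clusters did not use them, and clusters were named from marker genes. Of the 28 clusters, 10 were fibroblast-like (42882 cells, 46.5% to 63.0% of the cells of a library), and the other named classes were neuron-like (8910 cells), macrophage-like (6570), Schwann-like (2781), skeletal muscle-like (2489), astrocyte-like (1148) and mesothelial-like (573). The remaining 7 clusters (9482 cells) were left unnamed. Levels are given as CPM, the UMIs of a gene scaled to a common total over the cells summed, and because only transcript ends were counted, the CPM of different genes do not depend on their lengths.

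Together the 10 genes made up 5694 CPM of the fibroblast-like cells, against 113.9 CPM in macrophage-like and 194.6 CPM in neuron-like cells. The unnamed clusters together held 3370 CPM, 59.2% of the fibroblast-like level. There Prelp stood at 128.1% and Omd at 118.3% of the fibroblast-like level, and every other member stood below it. The largest of these clusters was led by Foxd1, Lbp and Igfbp2 and had Bgn at 1755 CPM, Ogn at 1318 CPM and Prelp at 37.3 CPM. In at least 50% of its cells 16 of 19 fibroblast markers were seen, but it is not among the fibroblast-like clusters below. Bgn (1682 CPM) and Dcn (1656 CPM) were the most abundant in fibroblast-like cells, and Ogn (968.6), Lum (770.3) and Aspn (503.4) followed. Podn (40.8 CPM), Fmod (36.0), Prelp (18.6), Epyc (12.5) and Omd (6.47) were far lower. In macrophage-like cells every member was at 1.48% to 3.15% of its fibroblast-like level, and its level was below that of the fibroblast-like cells in all 9 libraries. There the members also stood in much the same ratio to each other as in fibroblast-like cells: Bgn gave 34.6% of the SLRP molecules, Dcn 25.9%, Lum 15.4% and Ogn 13.6%, against 29.5%, 29.1%, 13.5% and 17.0% in fibroblast-like cells. The source of these macrophage-like levels was not tested. The WT day 10 library, the shallowest, stood apart, with Dcn at 161.3 CPM in its macrophage-like cells against 6.21 to 39.3 CPM in the other 8 libraries. Neuron-like cells had 1.91% to 7.90% of the fibroblast-like level, with Podn (3.22 CPM) and Bgn (90.5 CPM) at the upper end.

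Other classes had a pattern of their own. Mesothelial-like cells, from a layer that lines body cavities, held Dcn at 2108 CPM, Fmod at 161.6 CPM and Prelp at 40.2 CPM, which were 127.3%, 448.7% and 216.0% of the fibroblast-like level, while Prelp was below the fibroblast-like value of its library in 2 of 6 libraries, Aspn (101.9 CPM) reached 20.2% and Lum (335.4 CPM) 43.5%. In the 6 libraries with at least 50 mesothelial-like cells, Fmod ranged from 87.7 to 282.2 CPM and was above the fibroblast-like level of its own library in all 6. Astrocyte-like cells had Prelp at 66.3 CPM, 356.1% of the fibroblast-like level, and Fmod at 39.3 CPM, 109.0% of it, but Lum at 69.2 CPM and Aspn at 44.4 CPM, or 8.99% and 8.81%. Fmod was nevertheless below the fibroblast-like value of the same library in 6 of 8 libraries, with 228.6 CPM in its highest. In the 8 libraries with at least 50 astrocyte-like cells Prelp ranged from 24.0 to 226.7 CPM, above the fibroblast-like value of the same library in all 8. Schwann-like cells kept Prelp at 13.0 CPM, 69.8% of the fibroblast-like level, although it was below the fibroblast-like value of the same library in 4 of 9 libraries only (2.63 to 23.0 CPM), with Podn at 4.75% and Lum at 6.38%. With doublets kept, Dcn of the Schwann-like cells was 451.1 CPM in place of 164.5 CPM, and of the other members all but Prelp moved up as well. Skeletal muscle-like cells had Bgn at 281.5 CPM, Dcn at 223.2 CPM and Ogn at 206.0 CPM and very little Epyc (0.389 CPM). The WT day 10 library stood apart in these classes too. Its Dcn was 463.8 CPM in Schwann-like cells (15.2 to 175.4 CPM in the other libraries), 603.8 CPM in skeletal muscle-like cells (70.7 to 339.8) and 644.3 CPM in astrocyte-like cells (57.8 to 195.2 where there were at least 50 cells). Without that library, a setting chosen after seeing the data, Dcn summed to 127.1, 203.6 and 125.1 CPM in these classes, and Lum, Ogn and Aspn of the astrocyte-like cells were at 41.7, 76.2 and 26.2 CPM, while their Prelp was 68.8 CPM and their Fmod 39.7 CPM. Summed over libraries, Dcn, Fmod, Prelp and Podn reached the fibroblast-like level or more in a named class other than fibroblast-like. For Podn this was 44.6 CPM in mesothelial-like cells (109.4%), but it was below the fibroblast-like value of the same library in 4 of 6 libraries.

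**Figure D1:**
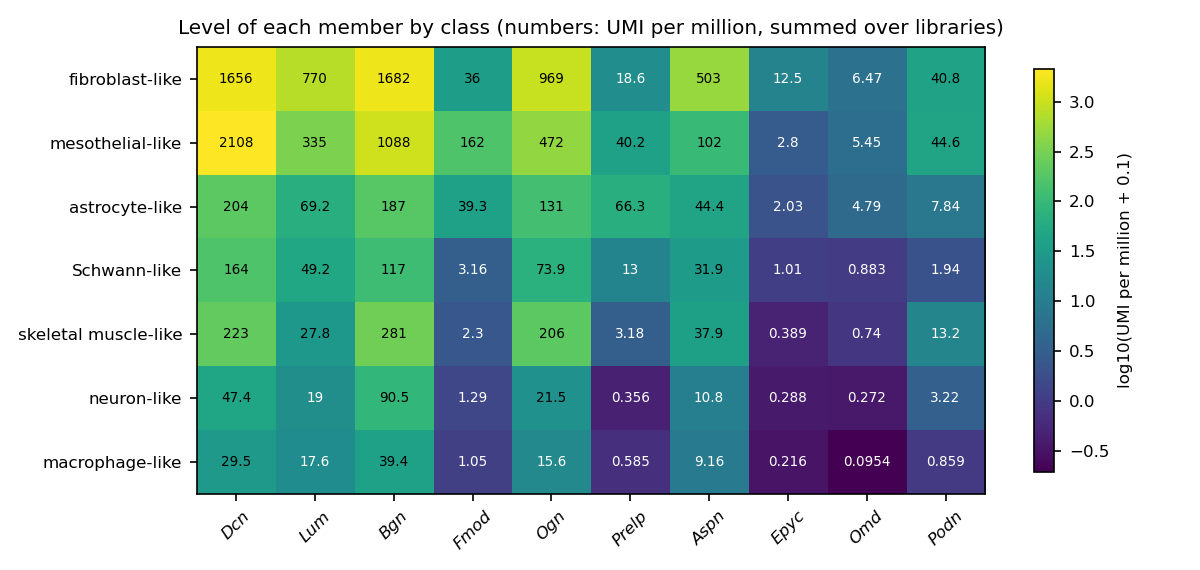
Level of the 10 genes (columns) in the 7 named classes (rows), with the number in each cell giving the CPM of the class summed over the 9 libraries and the colour its log10. Bgn and Dcn lead in fibroblast-like cells with 1682 and 1656 CPM, macrophage-like cells are lowest for every gene but Prelp (0.585 CPM, against 0.356 in neuron-like cells), and Fmod in mesothelial-like cells (161.6 CPM) and Prelp in astrocyte-like cells (66.3 CPM) exceed their fibroblast-like levels.

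To compare cells of unequal depth, each cell was thinned to 3000 UMIs. At that depth 94.2% of the fibroblast-like cells held a UMI of Bgn, 78.5% of Dcn, 77.9% of Ogn, 63.1% of Lum and 59.6% of Aspn. The shares of macrophage-like cells were 8.87% for Bgn, 5.77% for Dcn, 3.59% for Ogn, 4.32% for Lum and 2.19% for Aspn, at a median depth of 22006 UMIs per cell before thinning against 21882 in fibroblast-like cells. The rarer members were found in 10.3% (Podn), 7.57% (Fmod), 4.63% (Prelp), 2.96% (Epyc) and 1.68% (Omd) of fibroblast-like cells, against 0.0304% to 0.381% of macrophage-like cells. Without thinning the fibroblast-like shares were 99.0% for Bgn, 94.3% for Dcn, 94.5% for Ogn, 84.4% for Lum, 86.2% for Aspn, 43.0% for Podn, 26.7% for Fmod, 19.3% for Prelp, 10.995% for Epyc and 10.1% for Omd. A fibroblast-like cell held 4.005 of the 10 genes on average after thinning, and 0.833% of these cells held none, compared with 80.1% of the macrophage-like cells. The share of fibroblast-like cells with 5 or more of the genes lay between 18.6% and 27.4% in the libraries of day 4, between 42.4% and 55.4% in those of day 7 and between 44.7% and 55.8% in those of day 10.

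Within the fibroblast-like cells each member had its own pattern over the 10 clusters, which are called here by their leading genes. These differences are descriptions, and no test was run between clusters. The largest cluster, with C1qtnf3 and Lgr5 among its leading genes (8811 cells, called the Lgr5 cluster here), had the highest Dcn (2790 CPM), Fmod (88.1 CPM), Aspn (783.7 CPM) and Podn (75.0 CPM). It was the highest of all fibroblast-like clusters for Dcn and for Fmod in 9 of 9 libraries and for Podn in 8 of 9, but for Aspn in 2 of 9, where the Steap4 cluster was close (772.3 CPM). With 20.5% of the fibroblast-like cells it held 61.2% of their Fmod molecules and 46.0% of their Podn molecules. The cluster led by Steap4, Ebf2 and Adh1 (5937 cells) had the highest Prelp (60.5 CPM, against 1.93 CPM in the cluster led by Slc14a1, Grem1 and Cxcl15) and a Bgn level (2166 CPM) next to that of the Lgr5 cluster (2136 CPM), although it was not the highest for Bgn in any single library. It was the highest for Prelp in 5 of 9 libraries, with 13.0 to 69.6 CPM, and 3511 of its cells came from the Per1-/- day 10 library, where the Lgr5 cluster was higher still (75.5 CPM). The cluster led by Pcolce2, Mia and Msmp (4256 cells) had the highest Lum (1583 CPM), Ogn (1398 CPM) and Epyc (66.0 CPM). Of its cells, 3998 came from the Per2-/- day 10 library. Lum and Epyc were highest in this cluster in all 3 libraries that had at least 50 of its cells, and Ogn in 2 of these. Epyc is known from the growth plate of cartilage. The same cluster had raised cartilage markers, with a mean log2 fold of 1.66 against all other cells over 8 markers, and Comp and Hapln1 of that list were among its 10 leading genes while no fibroblast marker was, although 16 of 19 fibroblast markers were seen in at least 50% of its cells. Results of the class are therefore also given without it. Omd, which is known from bone and tooth, was highest in the cluster led by Otor (16.8 CPM) and second in the Slc14a1 cluster (13.2 CPM), although the Otor cluster was highest in 5 of 9 libraries and the Slc14a1 cluster was above it in Per1-/- and Per2-/- cells on day 4. Both clusters were low in Podn (14.2 and 14.8 CPM). The cluster of cycling cells, led by Hmmr, Mxd3 and Depdc1a, had Dcn at 850.4 CPM and Lum at 386.9 CPM. With libraries pooled, Bgn was the most even member, 2.15-fold higher in its highest cluster than in its lowest, and Prelp (31.3-fold) and Epyc (31.2-fold) were the least even. These folds also hold differences between libraries, since Epyc ranged from 16.3 to 67.8 CPM by library in its highest cluster.

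**Figure D2:**
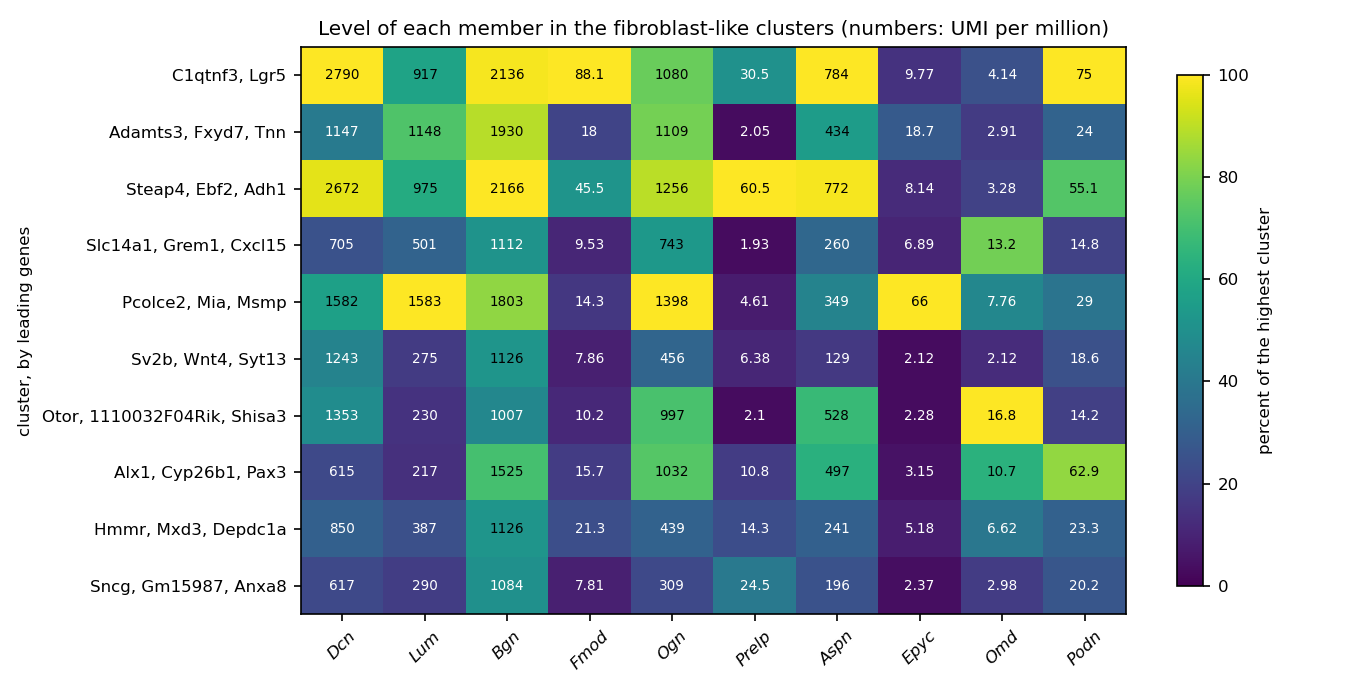
Level of the 10 genes (columns) in the 10 fibroblast-like clusters (rows, by leading genes, largest first), with numbers giving the CPM over all libraries and the colour the percentage of the highest cluster for that gene. Dcn, Fmod, Aspn and Podn peak in the Lgr5 cluster, Prelp in the Steap4 cluster (60.5), Lum and Epyc in the Pcolce2 cluster (1583 and 66.0) and Omd in the Otor cluster (16.8).

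Over the 10 fibroblast-like clusters the levels of Lum and Epyc varied together most closely (Pearson r = 0.91 of log2(CPM + 1)), followed by Fmod and Podn (0.81) and by Ogn and Aspn (0.80), and Prelp and Omd went in opposite directions (-0.48). The clusters drew unequally on the libraries, so these values mix cluster with library and day, and 10 points are few. The Pcolce2 cluster, for example, took 3998 of its 4256 cells from Per2-/- day 10. Among 10202 genes with at least 10 CPM in a cluster, those most like each member were Tsc22d3, Tbxa2r and Dhrs7 for Dcn (r = 0.96, 0.93 and 0.92), Fam198a, Fgf18 and Abi3bp for Lum (0.94, 0.94 and 0.93), Serpinf1, Plpp5 and Snhg12 for Bgn (0.93, 0.93 and 0.92), and Ppp2r5a, Cyb5r1 and Dennd4a for Fmod (0.94, 0.93 and 0.92). Ogn was most like Fastk, Ift20 and Copz2 (0.97, 0.96 and 0.95), Aspn most like Sar1a, Fkbp9 and Rrbp1 (0.95, 0.94 and 0.92), and Podn most like Lgr4, Ppp2r5a and Cygb (0.95, 0.93 and 0.90). For Prelp they were the interferon-inducible genes Ifi203, Ifi204 and Ifi211 (0.95, 0.95 and 0.95), for Epyc they were Pmepa1, Eln and Lum (0.94, 0.93 and 0.91), and for Omd they were Ift43, Mrpl54 and Myl6 (0.91, 0.91 and 0.86).

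The first comparison asked how the SLRPs of fibroblast-like cells changed as reprogramming went on. Their summed level was 3734, 4098 and 3406 CPM in WT, Per1-/- and Per2-/- cells on day 4, 6163, 7669 and 6450 CPM on day 7, and 7250, 7545 and 6738 CPM on day 10. All day 4 values were below all later values. Between days 4 and 10, 6 of the 10 genes rose in the edgeR test (adjusted p under 0.05 over 17099 genes), against 10.3% of all genes tested that rose and 8.23% that fell. No member fell. The median log2 fold change of the 10 genes was 1.12, and that of all genes was 0.0125. Between days 4 and 7, 3 members rose, with 1.25% of all genes rising and 1.36% falling, and the medians were 0.84 for the members and 0.0115 for all genes. Between days 7 and 10 no member passed the edgeR test or reached an unadjusted p under 0.05, and DESeq2 and limma-voom also called 0, where 0.994% of all genes rose and 0.175% fell. A sum holds both the share of cells with a gene and the level in those cells. At 3000 UMIs per cell, 56.6% to 72.5% of the fibroblast-like cells of the day 4 libraries held Dcn, against 80.6% to 91.6% in those of day 7 and 81.2% to 93.0% in those of day 10. The mean number of Dcn UMIs in cells that held any ranged from 3.25 to 4.48 over the day 4 libraries, from 6.10 to 8.10 over those of day 7 and from 6.75 to 8.63 over those of day 10, so both were higher on the later days. The summed level of the 19 fibroblast markers, none of them a member, moved too, with 19228 to 22324 CPM in the libraries of day 4, 28360 to 32795 CPM in those of day 7 and 24106 to 35078 CPM in those of day 10, and its part in the result was not tested. The 8 cartilage markers moved as well, from 79.2 to 101.3 CPM in the day 4 libraries to 114.1 to 248.2 CPM in those of day 7 and 163.1 to 300.7 CPM in those of day 10, and their part was not tested. Most of each sum came from Sox9, which astrocytes also use (68.8 to 81.2 CPM in the day 4 libraries, 95.8 to 231.9 CPM in those of day 10), and from Comp, while Col2a1, which defines cartilage, stood between 0.699 and 14.4 CPM, and Matn1 was at 0 in WT day 4. Without the Pcolce2 cluster, a setting chosen after seeing the data, the cartilage markers still summed to 164.0 to 289.8 CPM on day 10, and the same 6 members rose by day 10. Of 16953 genes tested in that setting, 1814 rose and 1357 fell. In the full fibroblast-like sums, Schwann markers were at 104.5 to 135.1 CPM on day 4 and 196.6 to 263.1 CPM on day 10. Astrocyte markers were at 193.1 to 240.4 CPM and 266.6 to 411.7 CPM on the same days. Mesothelial markers and those of smooth muscle and pericytes went down, and the part of these lists was not tested.

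Dcn, which binds collagen and TGF-beta, was measured at 1081 CPM in WT, 884.0 CPM in Per1-/- and 618.3 CPM in Per2-/- fibroblast-like cells on day 4. It stood at 2104, 2502 and 1709 CPM on day 7 and at 2471, 2703 and 1912 CPM on day 10. No day 4 library overlapped a later one. The log2 fold change was 1.30 ± 0.14 (SE) on day 7 (edgeR, adjusted p = 0.0150) and 1.44 ± 0.14 on day 10 (adjusted p = 0.00144).

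Bgn, the closest relative of Dcn, stood at 1291, 1495 and 1380 CPM in WT, Per1-/- and Per2-/- cells on day 4, at 1746, 2257 and 1793 CPM on day 7 and at 1692, 1944 and 1775 CPM on day 10. Day 4 did not overlap the later days, which overlapped each other, and the change was smaller, with a log2 fold change of 0.47 ± 0.10 on day 7 (adjusted p = 0.0621) and 0.35 ± 0.10 on day 10 (adjusted p = 0.0523), and neither passed. Both passed with DESeq2 and with limma-voom, and in no other alternative setting. In every day's libraries Bgn was highest in Per1-/- cells. Aspn, which competes with Dcn for collagen, stood at 334.8, 381.0 and 379.3 CPM on day 4, 492.6, 761.9 and 629.0 CPM on day 7 and 671.1, 638.4 and 427.0 CPM on day 10. It passed on day 10 (0.62 ± 0.18, adjusted p = 0.0472) and not on day 7 (0.76 ± 0.18, adjusted p = 0.0692), and the day 10 call was lost in 9 of 17 alternative settings, 7 of which left out 1 library (WT day 4 or 10, any Per1-/- day, or Per2-/- day 4 or 7).

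Among the class II members, Lum, which keeps collagen fibrils thin, stood at 431.2, 495.8 and 281.1 CPM in WT, Per1-/- and Per2-/- cells on day 4, at 814.1, 834.2 and 1036 CPM on day 7 and at 902.4, 897.8 and 1255 CPM on day 10. Its rise of 1.30 ± 0.25 by day 10 passed (adjusted p = 0.0139), and the 1.14 ± 0.25 on day 7 did not (adjusted p = 0.0621). Per2-/- cells had the lowest Lum of the 3 genotypes on day 4 and the highest on days 7 and 10, but without the Pcolce2 cluster their day 10 value was the lowest (871.5 CPM, against 883.7 in WT and 888.7 in Per1-/- cells). Fmod, which binds the same site of collagen as Lum, stood at 12.8, 21.7 and 13.7 CPM on day 4, at 37.8, 70.3 and 51.4 CPM on day 7 and at 56.5, 37.7 and 41.0 CPM on day 10. It rose by 1.73 ± 0.25 on day 7 (adjusted p = 0.0255) and 1.51 ± 0.25 on day 10 (adjusted p = 0.00880), with no overlap between day 4 and the later days.

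Prelp, which links the basement membrane to collagen, was at 6.20, 6.40 and 8.03 CPM in WT, Per1-/- and Per2-/- cells on day 4, at 16.5, 48.8 and 8.85 CPM on day 7 and at 23.4, 59.1 and 19.2 CPM on day 10. Its log2 fold change on day 10 was 1.98 ± 0.46 (adjusted p = 0.0257), the largest of the 10 genes, and the call was lost when WT day 4, 7 or 10, Per1-/- day 10 or Per2-/- day 10 was left out (adjusted p up to 0.0779). On day 7 the Per2-/- value was near those of day 4, and the change (1.44 ± 0.46) had an adjusted p of 0.138. Omd stood between 6.94 and 7.61 CPM on day 4, between 5.37 and 5.67 CPM on day 7 and between 5.48 and 7.69 CPM on day 10, and its change of -0.40 ± 0.13 on day 7 had an adjusted p of 0.140, and the log2 fold change was 0.0206 when the cells were clustered at resolution 2.

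The class III members differed. Ogn, which is best known from bone and heart, stood at 528.8, 761.3 and 675.6 CPM on day 4 in WT, Per1-/- and Per2-/- cells, at 889.2, 1099 and 1175 CPM on day 7 and at 1370, 1203 and 1232 CPM on day 10. It rose by 0.69 ± 0.13 on day 7 (adjusted p = 0.0469) and 0.94 ± 0.13 on day 10 (adjusted p = 0.00533). The day 7 call was lost in 10 of 18 alternative settings: resolution 2, the Pcolce2 cluster left out (adjusted p = 0.0549), and any 1 library left out but WT day 10 (adjusted p up to 0.222). Epyc stood at 6.65, 5.61 and 3.65 CPM on day 4, 8.62, 10.2 and 14.1 CPM on day 7 and 14.0, 7.08 and 41.6 CPM on day 10. The Per2-/- value on day 10 was far above all others, and the change over the 3 genotypes (1.63 ± 0.56) did not pass (adjusted p = 0.0829). That change was 0.86 without Per2-/- day 10, 0.97 without Per2-/- day 4 and 0.92 without the Pcolce2 cluster, and up to 2.17 when another library was left out. Podn, which has been linked to restraint of smooth muscle growth, stood at 34.1, 39.6 and 38.8 CPM on day 4, 49.0, 79.9 and 29.1 CPM on day 7 and 42.0, 49.9 and 27.8 CPM on day 10. It did not pass in any day comparison, and its log2 fold change was 0.37 ± 0.24 on day 7 and -0.01 ± 0.24 on day 10.

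**Figure D3:**
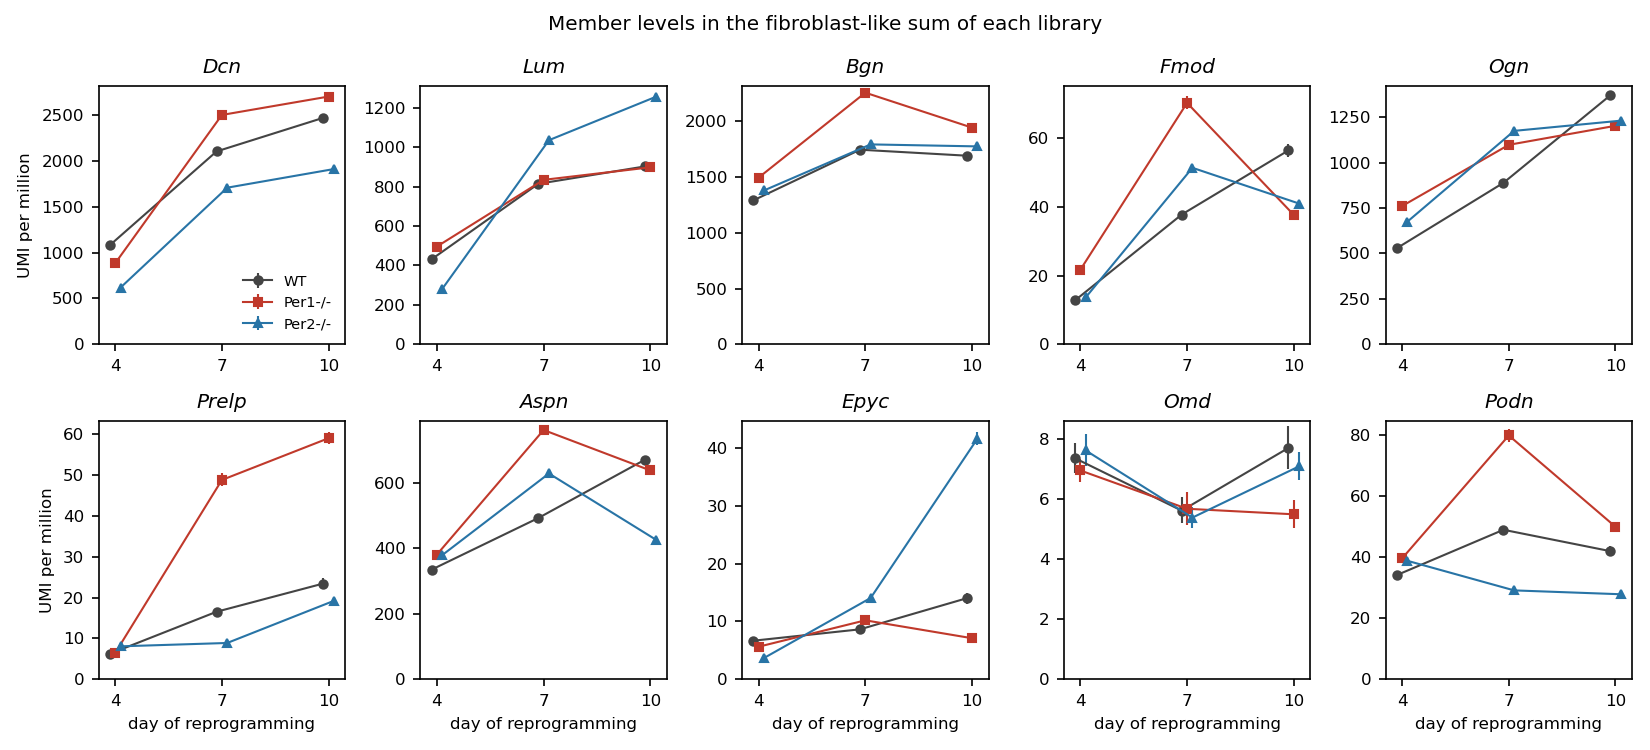
CPM of each gene (vertical axis, from 0) in the fibroblast-like cells of each library against the day of reprogramming, with a point for each genotype and an exact 95% counting interval that is mostly smaller than the point. All day 4 points of Dcn, Lum, Bgn, Fmod, Ogn, Aspn, Prelp and Epyc lie below all later points, for Prelp and Epyc by a small margin. Podn and Omd overlap. Prelp is highest in Per1-/- cells and Epyc in Per2-/- cells on day 10, and Omd stays between 5.37 and 7.69.

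**Figure D4:**
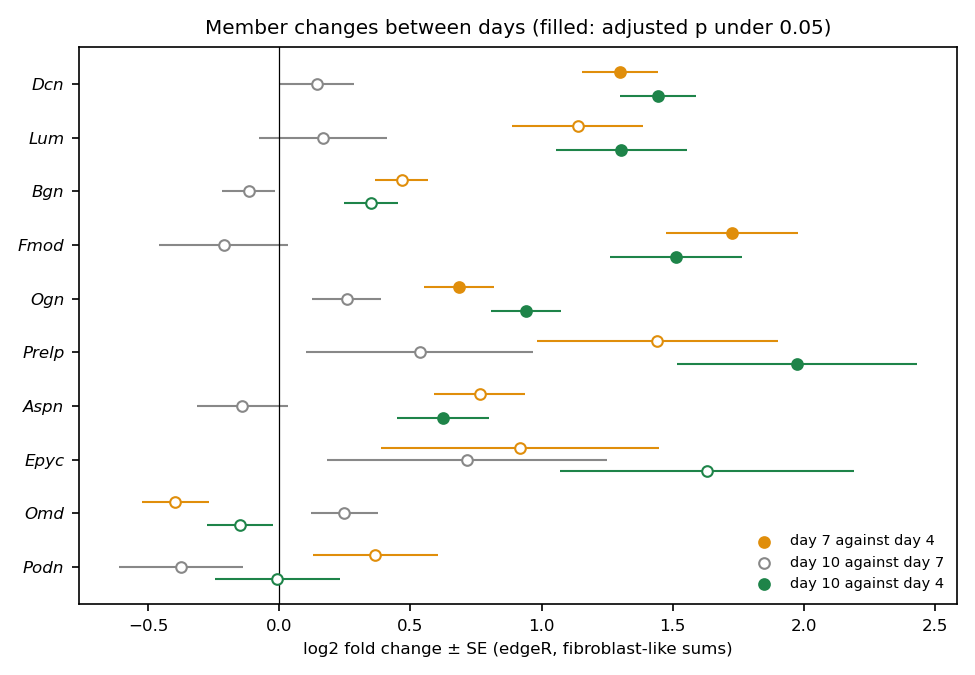
Log2 fold change of each gene between days with its standard error, from the edgeR fit to the 9 fibroblast-like sums, with filled points for an adjusted p under 0.05. Filled points lie to the right of 0 for 3 genes on day 7 and 6 genes on day 10 against day 4, and no point of day 10 against day 7 is filled.

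Leaving out single libraries did not end the day 10 calls of Dcn, Lum, Fmod and Ogn, which passed in all 17 alternative settings. The 3 calls of day 7 against day 4 were less firm. No member passed without Per1-/- day 7, Per2-/- day 4, Per2-/- day 7 or WT day 7, where 1, 20, 0 and 8 of all genes passed, and without WT day 4 1 member and 147 genes passed, against 445 genes in all 9 libraries. The log2 fold change over the libraries left out was between 1.20 and 1.48 for Dcn, 1.55 and 1.93 for Fmod and 0.59 and 0.79 for Ogn. With day 10 left out of the fit, the same comparison still called 3 members and 176 genes, from tables of days 4 and 7 that had been made with 1 software version and 1 gene table. Without the Pcolce2 cluster 4 members passed on day 7, with Lum (adjusted p = 0.0282) and Aspn (adjusted p = 0.0351) gained and Ogn lost, and 555 genes.

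The mix of fibroblast-like clusters was not the same in all libraries. The Steap4 cluster, the highest for Prelp, made up 1.18% to 1.67% of the fibroblast-like cells on day 4, 32.5% in Per1-/- day 7 and 68.1% in Per1-/- day 10, against 2.98% to 11.7% in the other 4 libraries of those days. The Pcolce2 cluster, the highest for Epyc, made up 59.5% of the fibroblast-like cells of Per2-/- day 10 and at most 3.24% elsewhere. With the Pcolce2 cluster left out, Epyc in Per2-/- day 10 was 11.02 CPM in place of 41.6, and Lum was 871.5 CPM in place of 1255. With the Steap4 cluster left out, Prelp in Per1-/- cells was still 45.1 CPM on day 7 and 37.7 CPM on day 10, above the 7.89 to 19.8 CPM of the other libraries of those days.

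**Figure D5:**
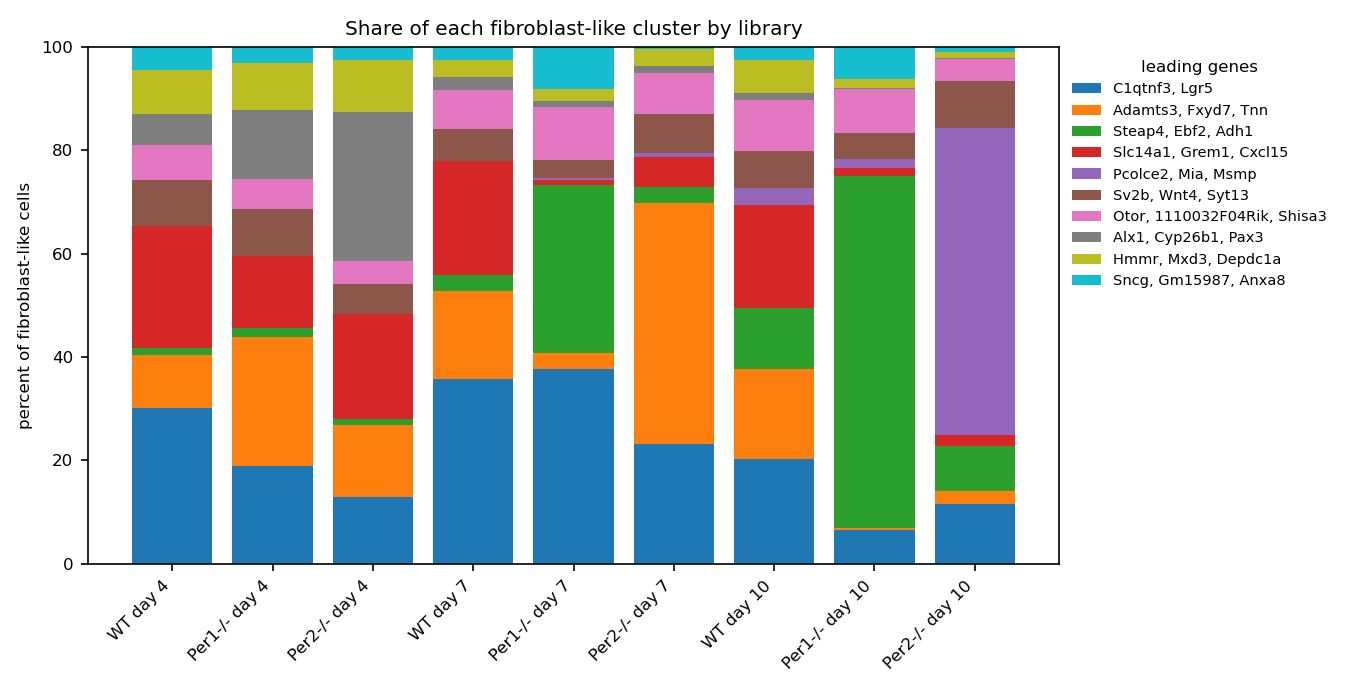
Share of the fibroblast-like cells of each library (bars, in percent) that fell in each of the 10 fibroblast-like clusters (colours, by leading genes). The Steap4 cluster holds 68.1% of Per1-/- day 10 and the Pcolce2 cluster 59.5% of Per2-/- day 10, and no cluster reaches those shares in the WT libraries.

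The rise over the days was therefore also measured inside each cluster, for every cluster and genotype with at least 50 cells on both days. Pairs of the same genotype share their libraries and are not independent, and the share over all genes was not measured. Dcn, Lum, Fmod and Ogn were higher on day 7 than on day 4 in 24 of 24 such pairs. On day 10 against day 4, Dcn and Fmod were higher in 23 of 23 pairs, Lum and Prelp in 22, Ogn in 21, Aspn, Epyc and Omd in 19, Bgn in 17 and Podn in 13, with median log2 ratios of 1.34 for Dcn, 1.35 for Fmod, 1.15 for Lum and 0.09 for Podn. In the Lgr5 cluster, which had 337 or more cells in every library, Dcn went from 1982, 1871 and 1587 CPM in WT, Per1-/- and Per2-/- cells on day 4 to 3808, 4053 and 3596 CPM on day 10, and Fmod from 25.6, 54.5 and 37.1 CPM to 117.2, 99.4 and 148.2 CPM. Omd was higher on day 7 in 20 of 24 pairs although its level in the whole class was lower. Its level in the Slc14a1 cluster went from 15.4, 20.4 and 20.8 CPM in WT, Per1-/- and Per2-/- cells on day 4 to 5.09 and 5.13 CPM in WT and Per2-/- cells on day 7, and this cluster went from 23.5% to 22.0%, from 13.9% to 0.953% and from 20.4% to 5.73% of the class. In the Otor cluster Omd was between 9.77 and 15.8 CPM on day 4 and between 15.9 and 27.2 CPM on day 10.

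At the level of the whole culture, which holds the share of each cell type as well as the level per cell, the sums of all cells kept gave a like picture over 18813 genes. Between days 4 and 10, 7 members rose (13.8% of all genes rose and 9.04% fell), namely the 6 of the fibroblast-like sums and Bgn (0.31 ± 0.09, adjusted p = 0.0467). The call for Bgn was lost in 12 of 15 alternative settings. Dcn rose by 1.40 ± 0.11 (adjusted p = 0.000158), Lum by 1.32 ± 0.23 (adjusted p = 0.00613), Fmod by 1.38 ± 0.20 (adjusted p = 0.00318) and Prelp by 1.86 ± 0.39 (adjusted p = 0.0129), and Epyc (1.66 ± 0.51) had an adjusted p of 0.0503. Between days 4 and 7, 6 members rose (6.68% of all genes rose and 3.02% fell), and they were Dcn, Lum, Bgn, Fmod, Ogn and Aspn. Dcn and Fmod passed in all 16 alternative settings, while the call was lost in 7 of them for Bgn, 5 for Ogn and 4 each for Lum and Aspn, each time with 1 library of day 4 or 7 left out, except that leaving out Per1-/- day 10 ended the call for Bgn and leaving out all of day 10 that for Lum. By day 10 the call was lost in 4 of 15 settings for Aspn and in 1 for Prelp (without Per2-/- day 10). Between days 7 and 10 no member passed the edgeR test or reached an unadjusted p under 0.05, and DESeq2 and limma-voom called 0 (1.4% of all genes rose and 0.197% fell).

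The second comparison asked whether the SLRPs of fibroblast-like cells depended on Per1 or Per2, with the 3 days of a genotype as its only repeats. No member and no gene at all passed the edgeR test between genotypes in fibroblast-like sums (0.0% of 17099 genes in each of the 3 contrasts). The median log2 fold change of the members was 0.28 in Per1-/- against WT, 0.0469 in Per2-/- against WT and 0.23 in Per1-/- against Per2-/-, beside 0.0029, -0.0041 and 0.0017 over all genes. Before adjustment, p was under 0.05 for 1525 genes and 2 members in Per1-/- against WT, 1356 genes and 1 member in Per2-/- against WT, and 2536 genes and 3 members in Per1-/- against Per2-/-. DESeq2 called 250, 141 and 583 genes and 0, 0 and 2 members (Dcn and Podn), and limma-voom called 0, 0 and 1 genes and no member. The members nearest to a call were Dcn, at -0.43 ± 0.14 in Per2-/- against WT (adjusted p = 0.550) and 0.51 ± 0.14 in Per1-/- against Per2-/- (adjusted p = 0.251), Bgn, at 0.32 ± 0.10 in Per1-/- against WT (adjusted p = 0.458), Podn, at 0.75 ± 0.24 in Per1-/- against Per2-/- (adjusted p = 0.258), and Prelp, at 1.17 ± 0.44 in Per1-/- against WT (adjusted p = 0.520) and 1.29 ± 0.46 in Per1-/- against Per2-/- (adjusted p = 0.280). Without the Per1-/- day 4 library, Prelp passed in both contrasts with Per1-/-, and Podn in that with Per2-/-, while 547 and 1326 genes passed. That library has Xist (488.1 CPM) and the other Per1-/- libraries do not, and their part in the result was not tested. With the level of Y-linked genes in the fit, the Prelp value became -1.22 in Per1-/- against WT and -0.31 in Per1-/- against Per2-/-, the Podn value became 0.0405 in Per1-/- against Per2-/- and the Bgn value 0.12 in Per1-/- against WT, none of which passed. Y-linked genes were at 117.1, 209.3 and 216 CPM in the Per1-/- libraries and at 53.3 to 61.5 CPM in those of WT. That covariate and the Per1-/- genotype therefore largely go together.

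Within a day each pair of genotypes is a pair of libraries, and their ratios carry counting intervals only. Per2-/- cells had less Dcn than WT on every day, with ratios to WT of 0.572 (95% interval 0.566 to 0.577), 0.812 (0.808 to 0.816) and 0.774 (0.769 to 0.779) on days 4, 7 and 10. Per1-/- cells had 1.16, 1.29 and 1.15 times the Bgn of WT on days 4, 7 and 10. Prelp in Per1-/- cells had ratios to WT of 1.03 (0.940 to 1.14), 2.96 (2.80 to 3.13) and 2.52 (2.38 to 2.67) on the same days. Epyc in Per2-/- cells went from 0.549 times WT on day 4 to 1.63 and 2.97 times on days 7 and 10, and Lum from 0.652 times to 1.27 and 1.39 times. Both day 10 ratios turned without the Pcolce2 cluster, which held 59.5% of the Per2-/- day 10 cells: Epyc was then 11.02 CPM against 13.6 in WT, and Lum 871.5 against 883.7 CPM. Omd was between 0.713 and 1.04 times WT in the mutants, and only the 0.713 of Per1-/- day 10 had an interval clear of 1. These intervals cover counting error and not the difference between cultures.

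In the sums of all cells, no member passed between genotypes by edgeR either, where 2.55% of 18813 genes passed in Per1-/- against WT, 0.00532% in Per2-/- against WT and 0.271% in Per1-/- against Per2-/-. An unadjusted p under 0.05 was found for 2, 1 and 3 members and for 3298, 1623 and 3380 genes, DESeq2 called 1, 0 and 2 members and 1336, 293 and 1219 genes, and limma-voom called no member and 491, 1 and 85 genes. The share of macrophage-like cells was 23.2% in Per1-/- day 7 and 16.1% in Per1-/- day 10 against 11.8% and 9.34% in Per2-/- and 6.66% and 5.07% in WT, and 4.38%, 2.62% and 1.93% in the same order on day 4, so that the cells with the least SLRP RNA were most common in the Per1-/- libraries.

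The genes around the SLRPs were taken from 9 lists, and their changes between days 4 and 10 in fibroblast-like sums are given beside the background of 10.3% of genes that rose and 8.23% that fell and the median of 0.0125 over all genes. Of the relatives of the members, 7 of 9 were tested and Ecm2, a matrix protein with leucine-rich repeats (1.28 ± 0.12, adjusted p = 0.00107), and Chadl (0.92 ± 0.13, adjusted p = 0.00535) rose, while Podnl1, the paralog of Podn, fell (-1.16 ± 0.29, adjusted p = 0.0318) at a mean of 0.283 CPM, with a list median of 0.92. Kera, named here for its place between Lum and Epyc, had 1.02 ± 0.39 (adjusted p = 0.111). Of 11 collagens bound by these proteins 5 rose and 1 fell, with a median of 0.45. Of this list, Col1a1, Col1a2, Col3a1, Col5a1, Col5a2, Col6a1 and Col6a2 are also among the 19 fibroblast markers, so the 2 sets are not separate. Col1a1 (0.53 ± 0.14) and Col1a2 (0.58 ± 0.12), the chains of type I collagen, and Col2a1 of cartilage (2.39 ± 0.51) rose, the last unevenly (from 1.08 to 14.4 CPM in Per2-/- and from 1.05 to 1.90 CPM in Per1-/- cells, and 2.28 ± 0.46 without the Pcolce2 cluster), and Col12a1, a collagen of the fibril surface, fell (-1.50 ± 0.21). Of 14 genes that process or crosslink collagen, Pcolce rose (0.53 ± 0.15) and Loxl2 (-0.80 ± 0.14), Tll1 (-1.33 ± 0.28) and Loxl4 (-1.33 ± 0.28) fell, with a median of -0.06.

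Of 21 tested genes for the sulfated sugar chains of decorin and its relatives, 4 rose and none fell, with Chsy3 at 3.50 ± 0.15, Xylt1, which starts the chains, at 1.01 ± 0.20, Chst14 at 0.32 ± 0.08 and Chpf2 at 0.29 ± 0.08, and the median was 0.19. Of 7 keratan sulfate genes, B3gnt2 (1.94 ± 0.27) and B4galt4 (0.46 ± 0.08) rose, with a median of 0.33. Chsy3, B3gnt2 and the proteoglycan gene Gpc2 also rose from day 7 to day 10 (2.70 ± 0.14, 2.19 ± 0.27 and 2.23 ± 0.19), the step at which the software version and gene table changed, and the day and the software cannot be told apart there. Of 22 other proteoglycans (median 0.17) 3 rose and none fell, namely Gpc2 (2.13 ± 0.19), Spock2 (1.79 ± 0.34) and Srgn (1.58 ± 0.31), the last being a proteoglycan of blood cells. The 14 macrophage markers summed to 20.04 to 40.5 CPM in the fibroblast-like sums of day 4 and 53.1 to 121.1 CPM on day 10, with none of them at 0, and their part in the Srgn value was not tested.

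Of 7 proteases that cut SLRPs, Mmp2 (0.69 ± 0.12) and Adamts5 (0.39 ± 0.10) rose, while the list median was -0.06. Of 16 growth factors and receptors bound by them (median -0.05), Itga2 (1.38 ± 0.22) and Tlr4 (0.70 ± 0.17), a receptor for soluble Bgn and Dcn, rose and none fell. Of 9 matrix genes that respond to TGF-beta, none rose and 3 fell although the list median was 0.13: Tgfbi (-1.01 ± 0.14), Acta2 (-1.81 ± 0.32) and Tagln (-1.34 ± 0.28), the last 2 being genes of the contractile apparatus of myofibroblasts. The 9 smooth muscle and pericyte markers, which include Acta2, summed to 446.2 to 642.9 CPM on day 4 and 141.1 to 251.4 CPM on day 10. Between days 4 and 7 the calls in these lists were Ecm2 (0.92 ± 0.12), Chsy3 (0.79 ± 0.14) and Col14a1 (1.74 ± 0.33), a collagen that binds Dcn, all higher on day 7. No gene of the 9 lists passed between genotypes in the fibroblast-like sums. Without the Pcolce2 cluster the day 10 calls of Podnl1 (adjusted p = 0.0979), Chpf2 (0.0971) and Tlr4 (0.0823) were lost, and Dse, Ust, Adamts2 and Postn were gained as higher and Mmp3 as lower on day 10.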

How the data were processed

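Of 9 libraries of single cells (droplet 3′ chemistry), 1 per genotype and day, the authors deposited raw UMI counts per gene and barcode, aligned to mm10 (GRCm38). The file headers name Cell Ranger 4.0.0 for days 4 and 7 and 6.0.0 for day 10, and the submitters' processing notes name 7.1. Genes were joined by identifier over both gene tables (30406 genes). Barcodes with at least 3000 UMIs and at most 20% mitochondrial UMIs were kept (81999), and 7164 doublets, the cells with the highest Scrublet scores up to a share that grew with the number of barcodes, were removed. Cells were clustered in scanpy 1.11.5 (2000 variable genes without the members, the list genes, sex-linked and mitochondrial genes, 30 principal components, 15 neighbours, Leiden resolution 1). A cluster took the name of a class whose markers had a mean log2 fold of 1 or more against the other cells, with 3 raised markers. It was called fibroblast-like when at least 10 of 19 fibroblast markers were seen in 50% of its cells with their mean level at 0.333 or more of that in the highest cluster, and no other class that gives a name reached 0.5. The cartilage, tendon and bone lists gave no name, and fibroblast-like clusters reached 1.66, 0.64 and 0.64 on them. A cluster led by adipocyte genes stayed unnamed by a rule added after seeing the data, and so did clusters that were mostly doublets or led by markers of another class that gives a name. Counts were summed per class and library and tested with edgeR 4.0.16 (quasi-likelihood F-test, two-sided, TMM, filterByExpr, R 4.3.3) with genotype and day as factors, and p was adjusted by Benjamini-Hochberg over all genes tested. A genotype's days and a day's genotypes are its only repeats, and GEO's labels name no further replicates. The p-values therefore rest on the spread between these libraries that genotype and day leave over, and not on repeat cultures. The script was tested on simulated data. Intervals are exact (Poisson for levels, binomial for shares, 95%) and cover counting error only. Alternatives were RLE factors, DESeq2 1.42.0, limma-voom 3.58.1, no low-count filter, leaving out each library, a Y-linked covariate, no day term, doublets kept, resolution 2, all barcodes and, added after seeing the data, leaving out day 10, leaving out the cluster with raised cartilage markers and, for levels by class, leaving out WT day 10. For each member the 3 genes with the highest correlation over fibroblast-like clusters were named, and of each list up to 4 called genes with the smallest p. A leading gene of 1 cluster and 1 searched motif are not reported here. Although the rule for the members uses names only, members and lists were chosen with earlier results of these data known.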

Additional observations from a re-analysis of the deposited data

Results flagged for a closer look

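In 5 comparisons a day effect in fibroblast-like cells went in opposite directions in different genotypes, with counting intervals on both sides of 1. The difference was not tested, since each value is a ratio of 2 libraries. Podn was 1.44 and 2.02 times its day 4 level on day 7 in WT and Per1-/- cells but 0.750 times in Per2-/- cells, and on day 10 it was 1.23 and 1.26 times but 0.717 times. From day 7 to day 10 Fmod was 1.49 times in WT cells but 0.536 times in Per1-/- and 0.797 times in Per2-/- cells, and Aspn was 1.36 times in WT but 0.838 and 0.679 times in Per1-/- and Per2-/- cells. Epyc over the same days was 1.62 times in WT and 2.96 times in Per2-/- cells but 0.695 times in Per1-/- cells. Without the Pcolce2 cluster, which held 59.5% of the fibroblast-like cells of Per2-/- day 10, Epyc in Per2-/- cells went from 13.5 CPM on day 7 to 11.02 CPM on day 10 and Fmod from 51.6 to 73.2 CPM, so that both directions turned.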

How the results depend on the processing

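No paired analysis was possible because the labels give no replicate numbers and each genotype and day had 1 library; genotype and day were factors of the fit. In fibroblast-like sums the rises of Dcn, Lum, Fmod and Ogn from day 4 to day 10 passed in all 17 alternatives (highest adjusted p 0.0111, 0.0418, 0.0374 and 0.0234), and Prelp was lost in 5 and Aspn in 9 of 17. Signs turned for Prelp with the Y-linked covariate (-1.22 in Per1-/- against WT and -0.31 against Per2-/-, and -0.36 against Per2-/- in all cells), for Omd at resolution 2 (0.0206 on day 7 and 0.22 on day 10 against day 4), and for Podn on day 10 against day 4 (0.00287 with doublets kept, 0.0270 by limma-voom, and -0.24 to 0.347 when single libraries were left out, above 0 without Per1-/- day 7 or any 1 Per2-/- library); the causes were not tested.

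Counts of genes in fibroblast-like sums moved as follows. DESeq2 called 250 (Per1-/- against WT), 141 (Per2-/- against WT), 583 (Per1-/- against Per2-/-), 1569 (day 7 against day 4, 445 by edgeR) and 423 (day 10 against day 7, 200 by edgeR). Without the low-count filter 1 gene passed in Per1-/- against WT and 1 in Per1-/- against Per2-/-, where doublets kept and limma-voom also gave 1 each. For day 7 against day 4, resolution 2 gave 162 and leaving out day 10, chosen after seeing the data, 176. DESeq2 called 2 members in Per1-/- against Per2-/-. For day 7 against day 4, DESeq2 called 6 members, and limma-voom, no filter and the Y-linked covariate 5 each. These last settings called 551 of 17099, 590 of 24569 and 632 of 17099 genes, in the same order.

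Leaving out single libraries gave 0 to 547 genes (Per1-/- against WT), 0 to 0 (Per2-/- against WT), 0 to 1326 (Per1-/- against Per2-/-), 0 to 632 (day 7 against day 4), 128 to 249 (day 10 against day 7) and 1352 to 2586 (day 10 against day 4, 3172 in all). The 547 and 1326 came without Per1-/- day 4, the 0 of day 7 without Per2-/- day 7, the 128 without Per2-/- day 7 and the 1352 without Per1-/- day 10. Members ranged from 0 to 1, 0 to 0, 0 to 2, 0 to 4, 0 to 0 and 4 to 5.

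In sums of all cells, DESeq2 called 1336, 293 and 1219 genes for the genotype contrasts in the same order (479, 1 and 51 by edgeR), 2836 for day 7 against day 4 (1825 by edgeR) and 606 for day 10 against day 7 (301 by edgeR), with 1 member in Per1-/- against WT and 2 in Per1-/- against Per2-/-. No day term and the Y-linked covariate each gave 0, 0 and 0 for the genotypes, leaving out day 10 gave 9, 0 and 0, all barcodes 3 in Per2-/- against WT and 2 in Per1-/- against Per2-/-, no filter 4 and 227, and limma-voom 85 in the last. Without single libraries the genes ranged from 132 to 2006, 0 to 3, 0 to 2006, 706 to 2015, 181 to 353 and 2466 to 3654 (4291 in all), with 2006 without Per1-/- day 4, 132 without WT day 7, 706 without Per1-/- day 7, 181 without Per2-/- day 7 and 2466 without Per1-/- day 10. Members ranged from 0 to 1 in Per1-/- against WT, 0 to 1 in Per1-/- against Per2-/-, 2 to 6 in day 7 against day 4 and 5 to 6 in day 10 against day 4.

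With 1 library per genotype and day, no test within a day was possible, and day 10 cannot be told apart from its software version. The least depth was that of Epyc (372 to 5276 UMIs per fibroblast-like sum), Omd (428 to 1288) and Prelp (700 to 5946).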
